A study of Mus musculus with 24 samples.

Results

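The germline genes Dazl, Ddx4, Mael, Asz1, Stk31, Tex19.1, Sycp1, Sycp3, Hormad1 and Tex101 were followed in mouse embryonic stem (ES) cells that lack the RNA methyltransferase subunits Mettl14 or Mettl3. The genes were chosen by name, with earlier results of these data known. All 10 were found by the symbol of their Ensembl identifier among the 47937 genes of both count tables. Nuclear RNA was sequenced in 8 RNA-seq libraries and in 16 MeRIP-seq libraries, for which an α-m6A antibody pulls down RNA fragments that carry N6-methyladenosine and the IP is compared with its input. There were 2 biological replicates in each group, so that every p-value rests on the spread between 2 cultures per line. The 4 lines share the strain 129/Sv x C57Bl6 and were grown in ES medium with Serum Replacement and LIF. WT26 cells are wild type, and the Mettl14 KO cells are the single clone A10 that was derived from them by CRISPR/Cas9, with a homozygous frameshift in Mettl14 and an intact methyltransferase domain of Mettl3. RBC cells carry Rosa26 BirA-V5 and Cre-ERT2, and the Mettl3 KO cells (clone 2c4d) carry the same alleles together with the loss of Mettl3. Each knockout is 1 clone with its own control line. A difference of a knockout from its control therefore cannot be told apart from a difference between clones. A difference between the knockouts cannot be told apart from a difference between clones or parental lines.

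These genes are expressed in the germ line and in early embryonic cells and are known as targets of DNA methylation, which covers their CpG-rich promoters when somatic lineages form and keeps them off. The same promoters are bound by PRC1.6, a Polycomb complex that contains E2F6 and MGA and recruits H3K9 methylation. The m6A mark is placed by the METTL3/METTL14 complex, in which METTL3 is the catalytic subunit and METTL14 supports RNA binding, and in mRNA it is known to speed up decay. DNA methylation was not measured in these libraries, so the results below are RNA levels and m6A IP values.

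The promoters of all 10 genes were read from the RefSeq table of GRCm38.p6, in a window of 300 bases that reaches 50 bases past the transcription start. They held between 15 and 38 CpG dinucleotides, against a median of 7 over 32851 promoters of that length. The E-box CACGTG, the sequence bound by MGA with its partner MAX, was found in 6 of the 10 genes (Ddx4, Sycp3, Sycp1, Mael, Stk31 and Hormad1) and in 7.15% of all promoters. The E2F6-type core GCGGGA, on either strand (TCCCGC), was found in 6 of the 10 genes (Ddx4, Sycp3, Sycp1, Mael, Tex19.1 and Hormad1) and in 19.975% of all promoters. Its longer form GGCGGGAA, which contains the core, occurred in Ddx4 and Hormad1 and in 2.19% of promoters. Each of these motifs contains a CpG, and the shares are those of all promoters, not of promoters equally rich in CpG. A match is a description of the letters and shows no binding. The upstream stretches of the 4 genes called lower in Mettl3 KO cells by RNA-seq and of Hormad1, which was called lower in Mettl14 KO cells, are printed 5′ to 3′ on the strand of the gene, without bases annotated as exon. Hormad1 was lower in Mettl3 KO cells too (log2 fold change -0.64), but by less than a call needed. Capitals mark CACGTG and the E2F6-type core, which in Hormad1 is shown in its longer form.
Dazl, chr17:50293637-50293870, minus strand: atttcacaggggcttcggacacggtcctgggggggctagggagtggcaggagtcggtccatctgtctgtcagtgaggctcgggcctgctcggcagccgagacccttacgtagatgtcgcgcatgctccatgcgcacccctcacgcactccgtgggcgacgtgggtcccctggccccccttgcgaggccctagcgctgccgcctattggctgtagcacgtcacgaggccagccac
Mael, chr1:166238748-166238994, minus strand: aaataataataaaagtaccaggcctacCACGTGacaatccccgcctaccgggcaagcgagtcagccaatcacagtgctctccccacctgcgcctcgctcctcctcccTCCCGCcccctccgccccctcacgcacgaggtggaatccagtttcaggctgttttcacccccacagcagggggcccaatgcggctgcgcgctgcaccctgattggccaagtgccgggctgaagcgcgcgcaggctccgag
Asz1, chr6:18109062-18109311, minus strand: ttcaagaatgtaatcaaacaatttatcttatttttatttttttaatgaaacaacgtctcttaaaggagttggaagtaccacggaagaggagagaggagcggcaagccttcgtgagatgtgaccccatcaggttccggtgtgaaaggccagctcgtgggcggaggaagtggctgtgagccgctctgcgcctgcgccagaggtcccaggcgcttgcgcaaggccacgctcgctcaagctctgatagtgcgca
Sycp1, chr3:102936101-102936350, minus strand: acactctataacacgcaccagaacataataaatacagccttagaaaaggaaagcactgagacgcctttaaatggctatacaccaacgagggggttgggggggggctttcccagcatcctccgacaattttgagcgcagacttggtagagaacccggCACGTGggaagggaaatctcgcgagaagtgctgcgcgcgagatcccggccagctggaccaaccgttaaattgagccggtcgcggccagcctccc
Hormad1, chr3:95559427-95559676, plus strand: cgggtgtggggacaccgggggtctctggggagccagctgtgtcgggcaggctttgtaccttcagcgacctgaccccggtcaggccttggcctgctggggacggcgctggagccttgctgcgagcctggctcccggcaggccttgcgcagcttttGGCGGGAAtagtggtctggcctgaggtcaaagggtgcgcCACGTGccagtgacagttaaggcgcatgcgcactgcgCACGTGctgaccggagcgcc
The printed stretches of Dazl and Asz1 hold neither motif, that of Sycp1 holds only the E-box, and Hormad1 holds 2 E-boxes. Motifs were counted in the whole window of 300 bases. The core counted in Sycp1 and part of those counted in Mael (2) do not lie within the printed stretches.

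RNA-seq totals ranged from 11321459 to 13743181 counted reads per library, and MeRIP-seq totals from 9394163 to 28441282. Counts were divided by DESeq2's size factors and are called normalized counts. All 10 genes passed the filter on low counts in RNA-seq and 9 of them in MeRIP-seq, where Tex101 did not. The frameshift left Mettl14 RNA detectable, with 296.5 and 315.6 normalized counts where WT26 cells had 400.6 and 357.5. Reads of Mettl3 were likewise still counted in its knockout (880 and 820.9, against 927.7 and 978.9 in RBC). The summed level of 10 ES cell markers was 29670 and 30162 in WT26 cells against 21497 and 21118 in Mettl14 KO cells, and it was 27311 and 27016 in RBC cells against 19566 and 19666 in Mettl3 KO cells. All 10 ES markers were detected in every line, while the spermatid markers Prm1, Prm2, Tnp1 and Acrv1 were at 0 in all 8 RNA-seq libraries. The same list also held markers of testis soma. Of these Star had 42.9 to 140.9 normalized counts, Cyp11a1 40.3 to 109.4, Amh 10.1 to 25.3 and Sox9 at most 3.6. The 8 primordial germ cell markers summed to between 2525 and 3001 in the 4 lines, and the 6 endoderm markers to 246.4 and 246.5 in Mettl14 KO cells against 54.8 to 106.9 in the other lines. The 6 markers of the 2-cell-like state, a rare state of ES cells, summed to between 74.9 and 121.2 in the control lines and between 25.3 and 32.2 in the knockouts. The 6 neural markers summed to 822 and 849.2 in WT26, with 643 and 675.1 in Mettl14 KO cells, while RBC cells had 1212.8 and 1198.8 and Mettl3 KO cells 1413.1 and 1492.7. Members of a list moved apart within these sums. Pax6 went from 20.8 and 23.6 in WT26 to 91.1 and 81.8 in Mettl14 KO cells. Tubb3 went from 444 and 414.4 to 194.3 and 210.4. With an adjusted p up to 0.05 in edgeR, Klf4 was higher in Mettl3 KO than in RBC cells and 9 ES markers lower. Kit alone gave 1601.8 to 2060.4 of the germ cell sums. The part of these shifts in the results was not tested, and in bulk RNA fewer cells with a transcript and less transcript per cell cannot be told apart.

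Although known as genes silenced by DNA methylation in somatic tissue, most of the 10 were transcribed in these ES cells. Per kilobase of annotated exon, Tex19.1 had a mean level of 331.8 normalized counts in WT26 cells, above 90.2% of the 16947 tested genes with a known exon length. Hormad1 stood at percentile 89.6 and Dazl at percentile 84.0 in WT26 cells on the same scale. Sycp3, Ddx4, Mael and Stk31 lay near the middle of all tested genes there, between percentiles 47.0 and 64.0. Lower levels per kilobase were seen for Sycp1 (percentile 30.5), Asz1 (percentile 18.0) and Tex101 (percentile 14.3) in WT26 cells. The widest range over the lines was that of Dazl, at percentile 87.4 in RBC and 34.3 in Mettl3 KO cells, followed by Sycp1, at percentile 30.5 in WT26 and 82.4 in RBC cells.

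**Figure D1:**
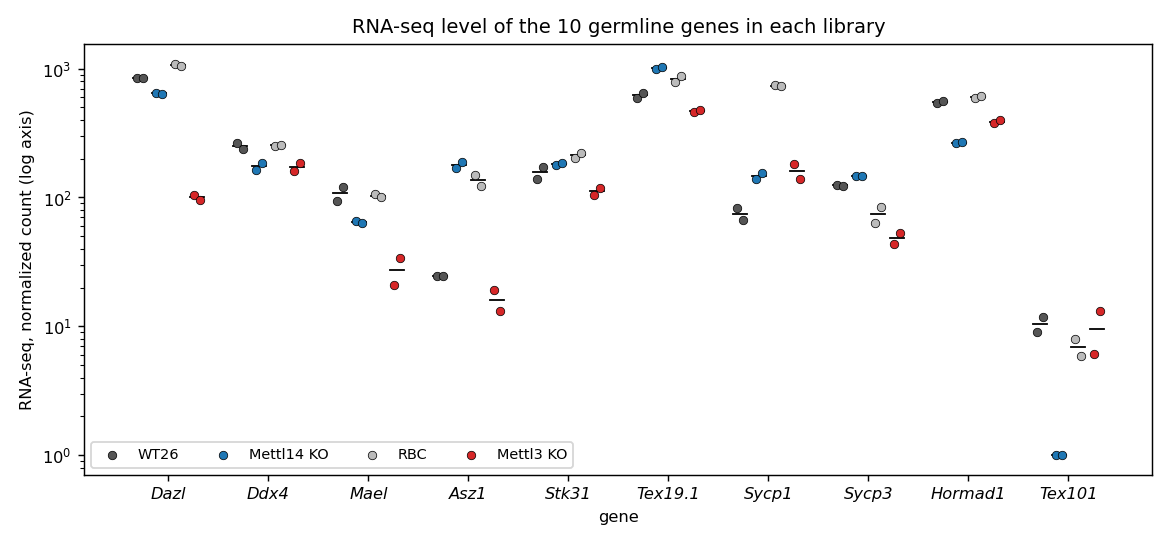
RNA-seq level of the 10 germline genes, as normalized counts on a log axis, with 1 point per library, 2 libraries per line and a bar at their mean. Dazl is about 100 in both Mettl3 KO libraries and at least 633.2 in the other 6, and Asz1 is under 30 in WT26 and Mettl3 KO cells and above 120 in Mettl14 KO and RBC cells.

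The level of these germline RNAs was compared between each knockout clone and its control line. With 1 clone per knockout, an effect of the lost m6A methyltransferase subunit cannot be told apart from a difference between clones. In Mettl14 KO cells Asz1 rose and Hormad1 and Tex101 fell, and in Mettl3 KO cells Dazl, Asz1, Sycp1 and Mael fell. Calls needed an adjusted p no higher than 0.05 in edgeR's quasi-likelihood test together with a fold change beyond 1 on the log2 scale in either direction. Between Mettl14 KO and WT26 cells 1 of the 10 genes was called higher, where 7.95% of all 17021 tested genes were, and 2 were called lower, where 6.57% were. Between Mettl3 KO and RBC cells 4 of 10 were called lower against 7.43% of all tested genes, and 0 were called higher by edgeR or by DESeq2, with 0 higher at an unadjusted p under 0.05 and 6.15% of all tested genes called higher. The same WT26 libraries serve as the reference for Mettl14 KO and for RBC cells, and RBC libraries as that for Mettl3 KO cells, so the 3 comparisons share libraries. The 2 control lines differed too. Sycp1 and Asz1 were called higher in RBC than in WT26 cells (2 of 10, against 4.86% of all tested genes), and 0 were called lower by either tool, with 1 lower at an unadjusted p under 0.05 and 4.12% of all tested genes called lower. The median log2 fold change of the 10 genes was -0.09 in Mettl14 KO cells and -0.89 in Mettl3 KO cells, beside medians of 0.00 over all tested genes. On the adjusted p alone, without the limit on the fold change, 3 genes were higher and 5 lower in Mettl14 KO cells (25.5% and 27.0% of all tested genes), and 0 were higher and 9 lower in Mettl3 KO cells (25.2% and 28.1%). In RBC against WT26 cells 5 were higher and 1 lower on that rule, 6 of 10 where 38.9% of all tested genes were called.

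**Figure D2:**
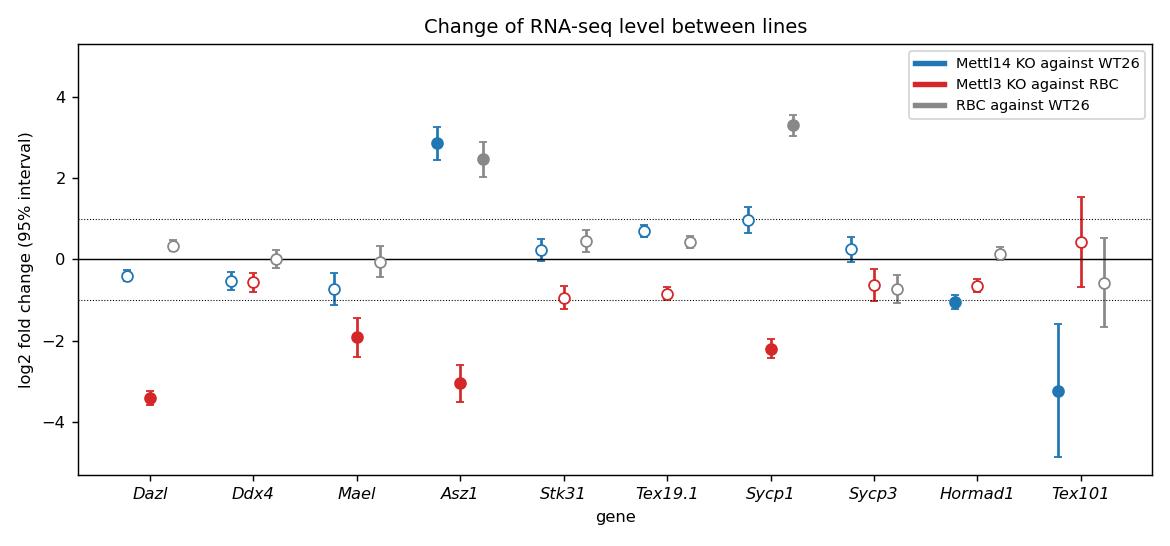
Log2 fold change of the RNA-seq level of the 10 germline genes for Mettl14 KO against WT26 (blue), Mettl3 KO against RBC (red) and RBC against WT26 (grey), with 95% intervals from edgeR. Filled points were called and dotted lines mark a log2 fold change of 1 in either direction: the filled red points of Dazl, Mael, Asz1 and Sycp1 all lie below -1, and Asz1 lies above 1 in blue and grey.

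Gene positions are given on GRCm38 from the GENCODE vM21 annotation. Dazl (chr17:50279395-50293636, minus strand), an RNA-binding protein that controls translation in germ cells, showed the largest fall of the 10 genes in Mettl3 KO cells. It had 1094.4 and 1049.9 normalized counts in RBC cells and 105.2 and 95.7 in Mettl3 KO cells. WT26 cells had 852.8 and 844.9 normalized counts and Mettl14 KO cells 651.0 and 633.2. The Mettl3 KO libraries were the lowest of all 8, and no groups overlapped. The fall in Mettl3 KO cells was 10.6-fold, with log2 fold change -3.41 (standard error 0.0829, adjusted p = 1.3e-15 in edgeR). In Mettl14 KO cells Dazl changed by a log2 fold change of -0.40 (adjusted p = 5.8e-05), which did not reach the limit on size. The control lines differed by 0.34 on the log2 scale, higher in RBC.

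Asz1 (chr6:18050964-18109061, minus strand), an ankyrin repeat protein of the germ granules that load piRNA, moved in opposite directions in the knockouts. Its levels were 24.4 and 24.7 normalized counts in WT26 cells, with 169.3 and 189.0 in Mettl14 KO cells. RBC cells had 149.4 and 123.2 normalized counts and Mettl3 KO cells 19 and 13.1. Mettl14 KO and RBC libraries were thus high, and WT26 and Mettl3 KO libraries low. The rise in Mettl14 KO cells was 7.27-fold (log2 fold change 2.86, standard error 0.194, adjusted p = 1.2e-09 in edgeR), and the fall in Mettl3 KO cells was 8.27-fold (log2 fold change -3.05, standard error 0.218, adjusted p = 2.4e-09). Between the control lines Asz1 was 5.51-fold higher in RBC cells (log2 fold change 2.46, adjusted p = 3.4e-08).

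Mael (chr1:166201201-166238747, minus strand), another germ granule protein of the piRNA pathway, had 105.8 and 100.6 normalized counts in RBC, with 20.9 and 34.2 in Mettl3 KO cells. In WT26 cells it had 94.0 and 121.3 normalized counts and in Mettl14 KO cells 66.1 and 63.3. Both knockouts lay below both control lines without overlap. The fall was 3.78-fold in Mettl3 KO cells (log2 fold change -1.92, standard error 0.225, adjusted p = 1.2e-06 in edgeR), and the log2 fold change in Mettl14 KO cells was -0.72 (adjusted p = 0.0040), under the limit on size. Ddx4 (chr13:112598333-112652475, minus strand), the DEAD-box helicase of germ granules also known as Vasa, had 264.1 and 239.4 normalized counts in WT26, with 163.2 and 186.1 in Mettl14 KO cells. It had 251.8 and 255.3 in RBC, with 160.9 and 184.3 in Mettl3 KO cells. The knockouts shared the same lower range, and the log2 fold changes were -0.53 (adjusted p = 0.000585) and -0.56 (adjusted p = 0.000346), with neither called.

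Stk31 (chr6:49395604-49469501, plus strand), a germ cell protein with a Tudor and a kinase domain, ranged from 105.2 and 117.8 normalized counts in Mettl3 KO cells to 203.5 and 222.8 in RBC cells, with no overlap. Its log2 fold change in Mettl3 KO cells was -0.94 (adjusted p = 9.75e-06 in edgeR), just under the limit on size, and it was called without replicate 2 of Mettl3 KO (-1.02) or replicate 1 of RBC (-1.004). WT26 cells had 140.2 and 173.9 normalized counts and Mettl14 KO cells 179.3 and 186.1, a log2 fold change of 0.23 (adjusted p = 0.15). Tex19.1 (chr11:121146143-121148319, plus strand), which restrains retrotransposons in germ cells, had 595.0 and 647.4 normalized counts in WT26, with 994.5 and 1021.9 in Mettl14 KO cells. It had 789.7 and 880.3 in RBC, with 456.5 and 474.4 in Mettl3 KO cells, the lowest of all lines. The direction thus differed between the knockouts: the log2 fold change was 0.70 in Mettl14 KO (adjusted p = 2.2e-07) and -0.85 in Mettl3 KO cells (adjusted p = 3.1e-08), and neither reached the limit on size.

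Among the meiotic genes, Sycp1 (chr3:102818499-102936100, minus strand), the transverse filament of the synaptonemal complex, differed most between the control lines. It had 82.3 and 66.6 normalized counts in WT26 cells and 740.3 and 735.4 in RBC cells. Mettl14 KO cells had 138.2 and 153.9 normalized counts and Mettl3 KO cells 181.7 and 138.0. The RBC libraries stood alone, and the knockouts overlapped each other. Sycp1 was 9.83-fold higher in RBC than in WT26 cells (log2 fold change 3.30, standard error 0.124, adjusted p = 1.0e-12 in edgeR) and 4.58-fold lower in Mettl3 KO than in RBC cells (log2 fold change -2.20, standard error 0.109, adjusted p = 2.1e-11). In Mettl14 KO cells the log2 fold change was 0.96 (adjusted p = 4.0e-05), and it was called without replicate 1 of Mettl14 KO (1.04) or replicate 1 of WT26 (1.13).

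Sycp3 (chr10:88459569-88473236, plus strand), a component of the chromosome axis, had 124.8 and 123.5 normalized counts in WT26, with 147.2 and 147.1 in Mettl14 KO cells. It had 63.2 and 84.8 in RBC, with 43.5 and 53.4 in Mettl3 KO cells, so the lines with the Rosa26 alleles were the lower ones. Its log2 fold change was 0.24 in Mettl14 KO (adjusted p = 0.17 in edgeR) and -0.63 in Mettl3 KO cells (adjusted p = 0.010), and it was called in neither. Sycp3 shares 660 exon bases with Chpt1 on the other strand, and whether the RNA-seq counting used strand is not given in the sources used here. Hormad1 (chr3:95559677-95587671, plus strand), which marks unsynapsed chromosome axes, had 539.0 and 559.4 normalized counts in WT26, with 264.4 and 267.9 in Mettl14 KO cells. It had 590.9 and 618.1 in RBC, with 377.4 and 397.9 in Mettl3 KO cells. Both knockouts were below both controls without overlap. The fall in Mettl14 KO cells was 2.06-fold (log2 fold change -1.04, standard error 0.0791, adjusted p = 5.4e-09), and that in Mettl3 KO cells had a log2 fold change of -0.64 (adjusted p = 1.15e-06) that was under the limit on size.

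Tex101 (chr7:24668007-24676675, minus strand), a glycoprotein of the sperm surface, was near the limit of detection. It had 9.0 and 11.8 normalized counts in WT26, 8.0 and 5.9 in RBC, with 6.1 and 13.1 in Mettl3 KO cells, and 1 read in each Mettl14 KO library. Only the Mettl14 KO libraries lay apart from the rest. The summed reads were 21 in WT26 and 2 in Mettl14 KO cells, a ratio of 10.4 at equal depth with an exact 95% interval of 2.55 to 91.8 that covers counting error only. The gene was called lower (adjusted p = 0.0020 in edgeR), and in Mettl3 KO cells it had a log2 fold change of 0.43 (adjusted p = 0.51).

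The changes of the knockouts were compared by testing the difference itself, the change in Mettl3 KO against RBC minus the change in Mettl14 KO against WT26. With 0.05 as the limit on the adjusted p, 9 of the 10 genes differed, where 43.2% of all tested genes did. For 7 of them the Mettl3 KO change was the lower one (22.4% of all tested genes), with the largest differences in Asz1 (-5.91 on the log2 scale, standard error 0.291, adjusted p = 6.9e-11 in edgeR), Sycp1 (-3.16) and Dazl (-3.01). Hormad1 (0.40) and Tex101 (3.67) differed in the other direction, and DESeq2 did not call Hormad1 (adjusted p = 0.052). Ddx4 had a difference of -0.03 with a 95% interval of -0.36 to 0.30 (adjusted p = 0.90). Sycp3, with -0.88, was called no longer without replicate 2 of RBC (-0.64, adjusted p = 0.081).

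Wider germline lists were counted in the same comparisons. They were written by hand from general knowledge, without the 10 genes and with earlier results of these data known. Counts of called genes are given to be read against the shares of all tested genes above. Of 17 tested genes of piRNA production and germ granules, 6 were called higher and 0 lower in Mettl14 KO cells (median log2 fold change 0.63), and 2 were called higher and 7 lower in Mettl3 KO cells (median -0.62). In RBC against WT26 cells 10 of the 17 were called higher and 0 lower (median 1.03). The mitochondrial acyltransferase Gpat2 rose in Mettl14 KO cells, where normalized counts were 702.1 and 679.0 against 141.1 and 169.6 (log2 fold change 2.16, adjusted p = 9.8e-12 in edgeR). In Mettl3 KO cells the Tudor protein Rnf17 fell from 3725.7 and 3947.3 to 881.8 and 880.3 normalized counts (log2 fold change -2.12) and Gtsf1, a cofactor of PIWI proteins, from 129.9 and 122.2 to 40.9 and 34.2 (-1.73). Tex15 (log2 2.17) and Piwil4 (log2 1.98), both of the nuclear piRNA pathway, were higher in RBC than in WT26 cells. Scaling by library size only, which moves the median of all tested genes by 0.15 in Mettl3 KO against RBC and by -0.15 in RBC against WT26, gave 2 called higher and 4 lower in Mettl3 KO cells and 8 higher in RBC cells, with the direction of the medians kept.

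Of 21 tested genes of the meiotic chromosome axis, synapsis and recombination, 7 were called higher and 0 lower in Mettl14 KO cells (median log2 fold change 0.65). In Mettl3 KO cells 0 were called higher and 2 lower (median -0.18), and 3 were called higher in RBC than in WT26 cells (median 0.37). Scaling by library size gave 1 higher and 1 lower in Mettl3 KO cells. Meiob, which binds single-stranded DNA in meiotic recombination, rose in Mettl14 KO cells, where normalized counts were 32.0 and 42.9 against 5.4 and 7.5 (log2 fold change 2.53, adjusted p = 2.4e-05 in edgeR), and the crossover factor Rnf212 (3.05) and the synaptonemal complex protein Tex12 (2.25) rose from under 5 normalized counts. Sycp2, the partner of Sycp3 in the axis, was higher in RBC than in WT26 cells (log2 1.77). Of 8 tested genes of meiotic entry and germ cell RNA binding, Mettl14 KO cells had 2 called higher and Mettl3 KO cells 1. Stra8, the retinoic acid target at meiotic entry, rose in both knockouts. In Mettl14 KO cells it went from 63.3 and 71.9 up to 695.1 and 629.3 normalized counts (log2 fold change 3.30, adjusted p = 3.2e-13) and in Mettl3 KO cells from 127.6 and 105.5 up to 392.2 and 417.0 (1.801, adjusted p = 3.2e-10).

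A list of 15 tested other germline genes with promoters known to be methylated had 7 called higher and 1 lower in Mettl14 KO cells (median log2 fold change 0.94) and 1 called higher and 6 lower in Mettl3 KO cells (median -0.68). In RBC against WT26 cells 7 were called higher and 0 lower (median 0.85). Usp26, an X-linked deubiquitinase of the testis, went from 171.8 and 161.0 normalized counts in WT26 to 1588.4 and 1640.5 in Mettl14 KO cells (log2 fold change 3.27, adjusted p = 2.4e-14 in edgeR). Usp26 was also called higher in RBC than in WT26 cells (log2 2.21) and lower in Mettl3 KO than in RBC cells (-1.49). Tktl2, a transketolase-like gene, rose by 2.45 on the log2 scale in Mettl14 KO cells and fell by 1.88 in Mettl3 KO cells. Its control lines differed by 2.08, with 316.1 and 304.6 normalized counts in RBC against 74.2 and 71.9 in WT26 cells. Mettl3 KO cells, with 78.3 and 90.7, lay near the WT26 level. Mageb4 had 121.9 and 119.3 normalized counts in RBC cells and at most 14 in the other 6 libraries, and its log2 fold changes were -5.92 for Mettl3 KO against RBC and 3.47 for RBC against WT26. Rhox13 (-2.17 and 3.96), Tuba3b (-2.15 and 1.94) and Slc25a31 (-1.75 in Mettl3 KO cells) were likewise called.

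Regulators of DNA methylation and repression were counted in the same way. Of 12 tested DNA methylation enzymes and cofactors, 0 were called higher and 2 lower in Mettl14 KO cells (median log2 fold change -0.27), and 1 was called higher and 1 lower in Mettl3 KO cells (median 0.01). Dnmt3l, the cofactor of de novo DNA methylation, had 775.0 and 860.0 normalized counts in WT26, with 191.3 and 183.1 in Mettl14 KO cells (log2 fold change -2.12, adjusted p = 6.5e-12 in edgeR). It also fell in Mettl3 KO cells, from 935.7 and 809.4 to 303.5 and 331.4 (-1.46, adjusted p = 2.6e-10), so that it was lower in both knockouts. Tet2 (-1.54 in Mettl14 KO cells) and Tet3 (1.51 in Mettl3 KO cells), enzymes that oxidize 5-methylcytosine, and Dnmt3l in Mettl3 KO cells were named after their values were seen, as the remaining called genes of the list. Of 20 tested PRC1.6 and H3K9 methylation genes, 1 was called higher in Mettl14 KO cells (Yaf2, 1.13) and 1 lower in Mettl3 KO cells (Tfdp1, -1.02), both named for the same reason. Between the control lines all genes of both lists stayed under the limit on size. On the adjusted p alone, 1 was higher and 4 lower in the first list, and 4 were higher and 9 lower in the other. Of all 17021 tested genes 3347 were higher and 3272 lower on that rule, together 38.9%.

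**Figure D3:**
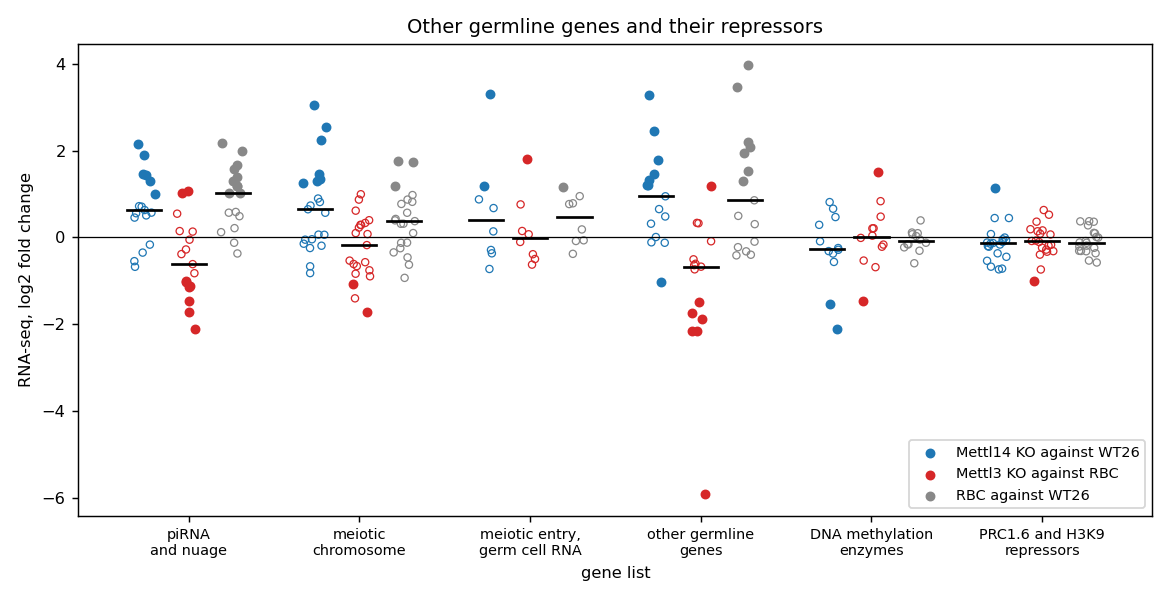
Log2 fold change of the RNA-seq level of each tested gene of 6 lists, for Mettl14 KO against WT26 (blue), Mettl3 KO against RBC (red) and RBC against WT26 (grey). Filled points were called and bars are list medians: in the piRNA list the medians are 0.63, -0.62 and 1.03, while the medians of the DNA methylation enzymes and of the PRC1.6 and H3K9 repressors lie between -0.27 and 0.01.

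The MeRIP input libraries hold the same lines and give a separate measurement of the levels. Fitted together with the IP libraries, they had a common biological coefficient of variation of 0.273, against 0.0625 in RNA-seq. Of 22621 tested features 0.752% were called between Mettl3 KO and RBC input, with 0.570% called lower, and a fit to only these 4 libraries called 4.91%. Dazl was the 1 gene of 9 that was called. Its input had 441.8 and 296.6 normalized counts in RBC, with 41.8 and 80.3 in Mettl3 KO cells, without overlap (log2 fold change -2.63, standard error 0.495, adjusted p = 0.024 in edgeR). Leaving out any 1 of the 4 libraries, in fits that called 0.0552% to 0.25% of all features, ended the call, with values of -2.20 (adjusted p = 0.38) and -3.139 (adjusted p = 0.13) without replicates 1 and 2 of Mettl3 KO, and of -2.31 (adjusted p = 0.20) and -2.88 (adjusted p = 0.057) without those of RBC. Inputs of the same number deviated together between lines (correlations of 0.452, 0.371 and 0.251), and with that number as a block 1.87% of all features were called and Dazl kept its call (-2.61, adjusted p = 0.0097). All 9 tested genes had a lower point estimate in Mettl3 KO than in RBC input, from -2.63 to -0.03.

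Asz1 input had 14.1 and 28.8 normalized counts in WT26, against 100.4 and 58.9 in Mettl14 KO, and 80.9 and 44.2 in RBC, with 10.9 and 20.9 in Mettl3 KO cells. The high and low lines were those of RNA-seq and did not overlap. The log2 fold changes were 1.97 in Mettl14 KO (adjusted p = 0.33 in edgeR), -2.03 in Mettl3 KO (adjusted p = 0.30) and 1.599 in RBC against WT26 cells (adjusted p = 0.61), none of them called. Mael input was 54.0 and 29.0 in RBC and 9.1 and 8.0 normalized counts in Mettl3 KO cells (log2 fold change -2.25, adjusted p = 0.22). A fit to only the libraries compared called Asz1 in both knockouts (adjusted p = 0.030 and 0.025) and Mael in Mettl3 KO cells (adjusted p = 0.022), where it called 3.27% of all features in Mettl14 KO and 4.91% in Mettl3 KO. In Mettl14 KO input 0 of the 9 genes were called by edgeR or DESeq2, with 1 at an unadjusted p under 0.05, where 0.398% of all tested features were called, and the same holds for RBC against WT26 input, where 0.584% were called. With the replicate number as a block these shares were 1.59% and 1.13%, and still 0 of the 9 genes were called.

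Sycp1 was the exception to the likeness of both sets. Its input was 443.9 and 384.6 normalized counts in WT26, 646.4 and 381.2 in RBC, 546.1 and 406.2 in Mettl14 KO, with 273.4 and 377.3 in Mettl3 KO cells. The WT26, RBC and Mettl14 KO libraries overlapped, and both Mettl3 KO libraries lay below all of them. The difference of RBC from WT26 was 0.31 on the log2 scale with a 95% interval of -0.69 to 1.31, which excludes the 3.30 of RNA-seq. In Mettl3 KO against RBC its input value was -0.66 with a 95% interval of -1.67 to 0.35, which excludes the -2.20 of RNA-seq. A fall of the called size was thus not seen in input, where the value had the same sign and was not called (adjusted p = 0.68 in edgeR). The MeRIP counts include reads with several mapping positions, whereas the counting of the RNA-seq is not given in the sources used here, and the part of this in the difference was not tested. The pseudogene Sycp1-ps1 had at most 3.4 normalized counts in RNA-seq.

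**Figure D4:**
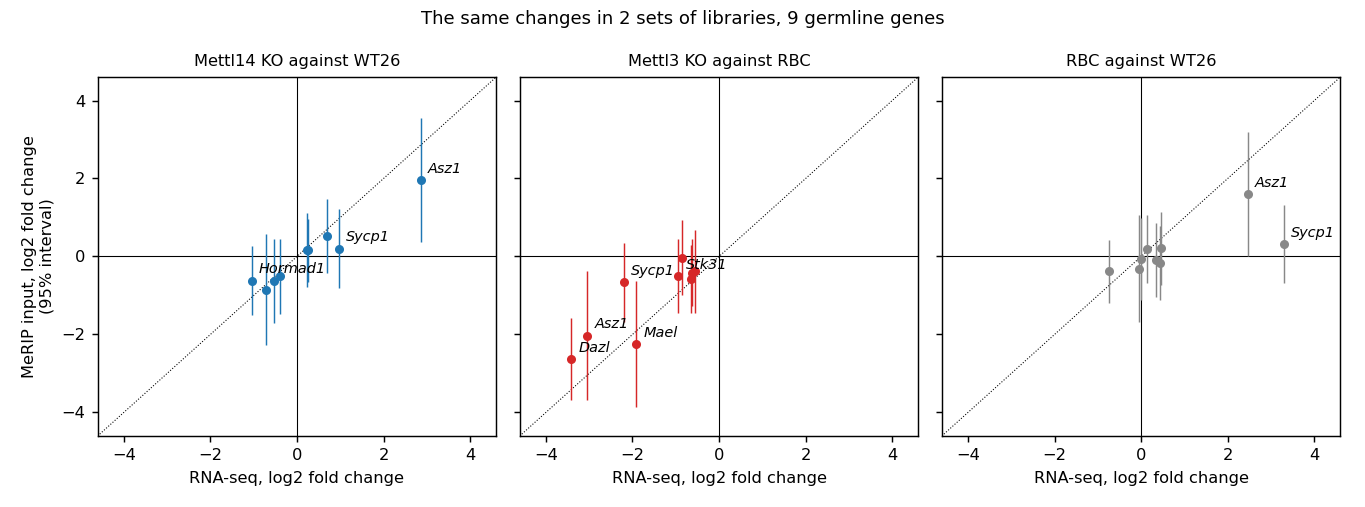
Log2 fold change in MeRIP input (vertical, with 95% intervals) against that in RNA-seq (horizontal) for 9 germline genes in the 3 comparisons, with a dotted line where both are equal. Dazl, Asz1 and Mael lie at the lower left for Mettl3 KO against RBC, and Sycp1 lies near 0 in input and at 3.30 in RNA-seq for RBC against WT26.

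Enrichment by the α-m6A antibody was then asked of each line, as the log2 ratio of IP over input with calls where the adjusted p was no higher than 0.05 and the value exceeded 1. Tex19.1 was the 1 gene of 9 called in WT26 cells, where 14.5% of all tested features were. Its IP over input was 2.41 and 3.40 in the replicates of WT26, against 1.42 and 3.91 in Mettl14 KO, then 1.89 and 2.87 in RBC, with 1.07 and 1.14 in Mettl3 KO cells. Both Mettl3 KO ratios lay below those of all other lines. The log2 value was 1.604 in WT26 (standard error 0.446, adjusted p = 0.017 in edgeR), 1.257 in Mettl14 KO (adjusted p = 0.0503), 1.17 in RBC (adjusted p = 0.061) and 0.16 in Mettl3 KO cells (adjusted p = 0.86). Without replicate 2 of WT26 the value was 1.27 (adjusted p = 0.31) in a fit that called 0 of 23645 features, so that this fit could not test the call. Input and IP of a replicate come from the same RNA, and with these pairs as a block Tex19.1 was also called in Mettl14 KO (1.22, adjusted p = 0.0351) and RBC cells (1.21, adjusted p = 0.031).

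The longest Tex19.1 transcript in GENCODE vM21 holds the pentamer GGACT, the most frequent form of the m6A consensus, 4 times in 1745 bases. This is 2.29 per kilobase, above 93.2% of 14749 tested protein-coding genes, whose median is 1.05. The 4 sites are printed with 8 bases on either side, with GGACT in capitals, on GRCm38 and the plus strand. Ddx4 and Stk31 also hold 4 such pentamers, at log2 IP over input of -1.29 and -0.88 in WT26 cells, and Tex101, whose IP was not tested, holds more per kilobase (2.46). These are matches of letters, and the counts per gene do not show at which site RNA was pulled down.
Tex19.1 transcript position 935, chr11:121147509-121147513, coding exon: ggtcgtaaGGACTcaggtcca
Tex19.1 transcript position 1347, chr11:121147921-121147925, 3' untranslated region: ggccctggGGACTgtgaagag
Tex19.1 transcript position 1405, chr11:121147979-121147983, 3' untranslated region: ttggtccaGGACTtgaggggg
Tex19.1 transcript position 1579, chr11:121148153-121148157, 3' untranslated region: gtatgtatGGACTctgaggca
Sycp3, whose longest transcript holds no GGACT, had a log2 IP over input of 0.78 in WT26, 0.77 in Mettl14 KO, 0.62 in RBC and 1.27 in Mettl3 KO cells. Its ratios were 1.75 and 1.70, 2.27 and 1.17, 1.84 and 1.27, and 1.87 and 2.92 in that order, all above 1 and overlapping between lines. It was called in none of the 4 lines by edgeR (adjusted p from 0.067 to 0.22). DESeq2 called it in Mettl3 KO cells (1.28, adjusted p = 0.036). Sycp3 shares 660 exon bases with Chpt1 on the other strand. The MeRIP counting settings in the paper name no strand, and the part of Chpt1 reads in these ratios was not tested.

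The other 7 tested genes were called enriched in no line by edgeR, and some of their 95% intervals include enrichment, up to 1.34 for Sycp1 in RBC (0.35) and up to 2.01 for Mael in Mettl3 KO cells (0.28). Tex101 had too few reads to be tested. Dazl had IP over input of 0.53 and 0.34 in WT26, a log2 value of -1.24 (adjusted p = 0.049 in edgeR, where 16.1% of all tested features passed on the low side and 16.9% on the high side), and 0.83 and 0.75 in Mettl3 KO cells. Ddx4 had log2 values of -1.29 in WT26, -0.75 in Mettl14 KO, -1.30 in RBC and -0.45 in Mettl3 KO cells. The median log2 value over the 9 genes was -0.73 in WT26, -0.34 in Mettl14 KO, -0.24 in RBC and 0.14 in Mettl3 KO cells, beside medians from -0.01 to 0.02 over all tested features. By edgeR 0 of the 9 genes were called enriched in Mettl14 KO (11.9% of all tested features), RBC (13.4%) or Mettl3 KO cells (2.54%), with 1 gene in each at an unadjusted p under 0.05 and a higher IP. DESeq2 called 1 of 9 in each of these lines, where it called 13% of all tested features in Mettl14 KO, 14% in RBC and 4.96% in Mettl3 KO cells. In all 4 lines the ratios of Dazl, Ddx4, Mael, Asz1, Stk31 and Hormad1 were lower in the libraries numbered 2, whose totals were 9394163 to 16239506 counts against 19302923 to 28441282 in those numbered 1, and the part of depth in this was not tested.

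**Figure D5:**
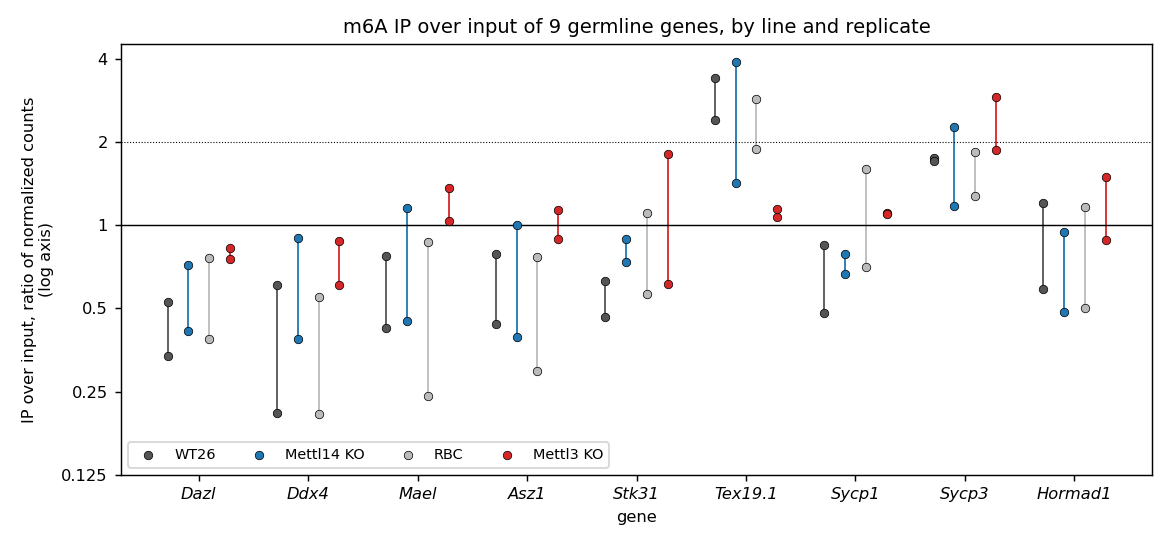
IP over input of 9 germline genes as the ratio of normalized counts on a log axis, with 1 point per replicate and a line joining the 2 replicates of a line. Tex19.1 lies between 1.42 and 3.91 in WT26, Mettl14 KO and RBC cells and at 1.07 and 1.14 in Mettl3 KO cells, while Dazl and Ddx4 lie under 1 in all lines.

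A loss of m6A on a gene, relative to other RNA, would appear as a lower IP over input in a knockout than in its control. The scaling holds the median of all tested features near 0 in each line (-0.01 to 0.02). A loss shared by most RNA would therefore not appear, and a value above 0 need not be a gain of m6A. The change of Tex19.1 was -0.35 on the log2 scale in Mettl14 KO (95% interval -1.67 to 0.98) and -1.01 in Mettl3 KO cells (95% interval -2.35 to 0.33, adjusted p = 0.85 in edgeR). The sign of the Mettl14 KO change rested on replicate 1 of Mettl14 KO, without which it was 0.37. For the 9 genes the Mettl14 KO changes ran from -0.35 to 0.58 and the Mettl3 KO changes from -1.01 to 0.85. By edgeR 0 of 9 genes changed in either knockout or between the control lines, with 0 at an unadjusted p under 0.05 and 0 by DESeq2, and 0% of all tested features were called. Over all 22621 features edgeR had 126, 787 and 133 at an unadjusted p under 0.05 in Mettl14 KO, Mettl3 KO and RBC against WT26, and DESeq2 called 1, 0 and 0. The intervals of Tex19.1 include both no change and a fall of more than 2-fold, so a difference of that size was not detectable for it at this spread. In Mettl3 KO the 95% intervals began above -1 for Sycp3 (-0.49), Ddx4 (-0.66) and Hormad1 (-0.76). In Mettl14 KO they did so for Stk31 (-0.75), Dazl (-0.94) and Ddx4 (-0.99). Those of the remaining genes reached below -1.

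The pattern of each gene over the 8 RNA-seq libraries was set beside that of 1780 genes that averaged 50 or more normalized counts and had a standard deviation of at least 0.5 on the log2 scale. Dazl was most like Mirg, Rian and Meg3, the maternally expressed noncoding RNAs of the imprinted Dlk1-Dio3 region, with Pearson correlations of 0.999, 0.998 and 0.998. Meg3 had 4039.5 and 4049.7 normalized counts in WT26, against 2555.9 and 2593.3 in Mettl14 KO, and 5814.5 and 5390.5 in RBC, with 30.4 and 27.2 in Mettl3 KO cells, the same order of lines as Dazl. In the 8 input libraries the correlations with Dazl were between 0.927 and 0.955. Sycp1 was most like Mov10l1 (0.998), the helicase at the start of piRNA processing, but only at 0.392 in input. Hormad1 was most like Slfn9 (0.998, and 0.949 in input), Asz1 like Aspg (0.983) and Tex19.1 like Xlr3b (0.986). These correlations run over 4 lines with 2 libraries each, are the highest of many and carry no test.

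Mael was most like Cyp2s1 (0.980), Ppm1j and Gpa33, and Gpa33 is also its nearest tested neighbour on one side. In Mettl3 KO cells Gpa33 fell by 2.93 on the log2 scale (adjusted p = 1.9e-14 in edgeR) and the neighbour on the other side, Ildr2, by 1.45 (adjusted p = 0.000216). Asz1 has Cftr as a neighbour, whose log2 fold changes of 2.23 in Mettl14 KO, -1.88 in Mettl3 KO and 3.07 in RBC against WT26 had the signs of Asz1, while St7 on its other side had -0.03, 0.80 and -0.40. Cftr had few reads in WT26 cells (1.8 and 7.5 normalized counts). Next to Dazl, Rftn1 had -0.44 in RBC against WT26 (adjusted p = 0.19 in edgeR) and 0.39 in Mettl3 KO cells (adjusted p = 0.22), and Plcl2 0.98 in Mettl3 KO cells, against the fall of Dazl. Golph3l, next to Hormad1, fell with it in Mettl14 KO cells (-1.11, adjusted p = 2.8e-07), while Ctsk on the other side had 0.64 (adjusted p = 0.24). Next to Ddx4, Slc38a9 had 1.02 in Mettl14 KO cells (adjusted p = 8.8e-09), against the sign of Ddx4. The neighbours of the remaining genes are not described here.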

How the data were processed

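Counts were deposited by the authors as raw read counts, not normalized: per gene for the 8 RNA-seq libraries, and per gene and repeat subfamily for the 16 MeRIP-seq libraries. MeRIP-seq reads were trimmed (cutadapt 1.8.1) and mapped to GRCm38 (STAR 2.6.0c, reads with several positions kept) by the authors, who counted them with TEtranscripts. The submitters' processing notes name the same trimming and alignment tools for RNA-seq, and the counting tool is not given in the sources used here. The libraries are TruSeq Stranded Total RNA, and 3 MeRIP reactions were combined per replicate.

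The tests were those of edgeR 4.0.16 (quasi-likelihood, in R 4.3.3), scaled by size factors from DESeq2 1.42.0. After filterByExpr 17021 genes and 22621 MeRIP features were tested and p-values adjusted over all of them by Benjamini-Hochberg. All libraries of a table entered its fit. Alternatives were TMM, library size, other filters, the test of DESeq2, calls on the adjusted p alone, fits to only the libraries compared, a block on the replicate number or on pairs of input and IP, and leaving out each replicate. Same-numbered input and IP come from the same RNA and deviated together (correlations of 0.195 to 0.280 across features), and same-numbered inputs of different lines did so too (0.251 to 0.452). The genes and lists were chosen with earlier results of these data known. Named beside the 10 genes are up to 8 called list genes per RNA-seq comparison with the largest log2 fold change, and the 3 most similar genes. Symbols were matched for 47224 of 47937 identifiers, and positions are from GENCODE vM21 and Python 3.11.15.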

Additional observations from a re-analysis of the deposited data

Results flagged for a closer look

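For 9 of the 10 genes the change in Mettl3 KO against RBC differed from the change in Mettl14 KO against WT26 in the test of the difference itself (edgeR, RNA-seq, 2 libraries per line). The difference was -5.91 on the log2 scale for Asz1 (adjusted p = 6.9e-11), the scaffold of germ granules. It was -3.01 for the RNA-binding gene Dazl (adjusted p = 9.5e-13) and -3.16 for the synaptonemal complex gene Sycp1 (adjusted p = 6.0e-10). For Sycp1 the MeRIP input gave smaller, uncalled values of the same sign as RNA-seq (-0.66 in Mettl3 KO and 0.20 in Mettl14 KO cells). How multimapping reads were counted in RNA-seq is not given in the sources used here. For Tex19.1 the difference was -1.55 (adjusted p = 2.7e-09), for Mael -1.20 (adjusted p = 0.0038) and for Stk31 -1.17 (adjusted p = 5.8e-05). Sycp3 had -0.88 (adjusted p = 0.0070). Hormad1 with 0.40 (adjusted p = 0.0065) and Tex101 with 3.67 (adjusted p = 0.0050, from 2 reads in Mettl14 KO cells) differed in the other direction. Over all tested genes 43.2% differed, and each knockout is 1 clone with its own control line.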

How the results depend on the processing

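On the adjusted p alone, 8 of the 10 genes were called in Mettl14 KO, 9 in Mettl3 KO and 6 in RBC against WT26 cells in RNA-seq (52.5%, 53.4% and 38.9% of all genes). In WT26 IP over input 2 of 9 genes were called on that rule, where 33% of all features were. Fits that left out a replicate hold 1 library in a group, so their calls are not counted here. Dazl, called in Mettl3 KO input with all libraries, lost its call there without any 1 of the 4 libraries, as given above. For IP over input, the fits without replicate 2 of WT26, Mettl14 KO or RBC, or either replicate of Mettl3 KO, called 0 of all features and test no call. With the replicate number as a block no RNA-seq call among the 10 genes changed. Same-numbered RNA-seq libraries of RBC and Mettl3 KO cells deviated together (correlation of 0.453). Those of WT26 did not do so with Mettl14 KO (-0.0713) or RBC (-0.172). Without a filter, or with only the libraries compared, input calls were 1 for Mettl14 KO and 3 for Mettl3 KO. All features were called at 1.45% and 1.62% without a filter, at 3.27% and 4.91% with only the libraries compared, and at 0.398% and 0.752% in the reported fit. The replicate block raised the features called in input from 90, 170 and 132 to 359, 422 and 256 and changed no call among the 9 genes there.

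IP over input in Mettl14 KO had 1 call of 9 genes under TMM, no filter, at least 10 counts, DESeq2, both blocks and only the libraries compared. These fits called 8.51% to 16.1% of all features. Under library size 2 were called, where 22.6% of all features were. RBC had 1 under library size, no filter, DESeq2, both blocks and only the libraries compared, where 9.3% to 25.8% of all features were called. Mettl3 KO had 1 under library size, DESeq2 and the replicate block (4.96% to 11.1% of all features), and WT26 had 2 under library size (25.1%).

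Signs that turned belonged to values that were not called. Under scaling by library size, RBC against WT26 gave -0.14 for Ddx4 and -0.0079047 for Hormad1, the difference of Ddx4 was 0.15, and Dazl IP over input in Mettl3 KO was 0.0298. Leaving out each replicate moved Ddx4 in RBC against WT26 from -0.060941 to 0.080042, Mael there from -0.24 to 0.13, the difference of Ddx4 from -0.13 to 0.0704, and Tex101 in Mettl3 KO from -0.17 to 0.91. The change of Tex19.1 in Mettl14 KO ranged from -1.10 to 0.37. Input values ranged from -0.0298 to 0.40 for Sycp1 in Mettl14 KO, and in RBC against WT26 from -0.12 to 0.64 for Sycp1, from -0.41 to 0.17 for Dazl and from -0.84 to 0.0535 for Mael. The cause was not tested. With 2 libraries per group, MeRIP differences between lines were resolved only where large.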
